A study of Mus musculus with 12 samples.

Results

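The 10 genes described here are components of the circadian clock, chosen by symbol: *Clock*, *Per1*, *Per2*, *Per3*, *Cry1*, *Cry2*, *Nr1d1*, *Nr1d2*, *Dbp* and *Tef*. All 10 were present among the 16152 genes of the count table and the 51825 genes of the CPM table. CPM values are counts divided by the mapped reads of the library and scaled to a fixed total. All 10 were above the minimum level for testing, 1 CPM in at least 3 libraries. For this minimum, the summed counts of the count table took the place of the mapped reads. RNA was sequenced from whole lungs of wild-type C57BL/6 mice of both sexes at 2 embryonic (E15.5 and E18.5) and 2 postnatal (P5 and P8) time-points, with 3 replicates per time-point and no treatment. Littermates served as the 3 replicates of each time-point, so litter and time-point cannot be told apart and p-values measure the spread between littermates. The hour of collection was not given in the sources used here, so time of day and time-point cannot be told apart either. In whole tissue, fewer cells of a type and less RNA per cell cannot be told apart.

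The clock is a transcriptional feedback loop present in most cells, lung cells included. CLOCK and its partner BMAL1 (gene *Arntl*) activate genes through E-box motifs, among them the *Per* and *Cry* genes, whose proteins return to the nucleus and inhibit this activation. In a connected loop the REV-ERB receptors (genes *Nr1d1* and *Nr1d2*) repress and the ROR receptors activate *Arntl* through sites with an AGGTCA core, and the PAR bZIP factors DBP, TEF and HLF drive output genes through D-box motifs, which NFIL3 represses. In adult tissues most of these transcripts rise and fall over the day, each with its own phase.

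The deposited counts summed to between 41337443 and 53901957 reads per library. The member with the fewest reads was *Nr1d1*, with 68 reads in its lowest library, and the member with the most was *Tef*, with 7968 in its highest. The markers of lung epithelium, endothelium and mesenchyme were above 0 in all 12 libraries, and their levels changed with development. The summed level of 2 endothelial markers was 623 to 693 CPM at E18.5 and 1314 to 1417 CPM at P5, that of 3 red cell precursor markers 926 to 1098 and 2381 to 3633 CPM, that of 3 epithelial markers 1475 to 2247 and 11820 to 13384 CPM, and that of 2 mesenchymal markers 1088 to 1165 and 848 to 1006 CPM. Of the epithelial sum, *Sftpc* made up 1079 to 1819 CPM at E18.5 and 11618 to 13186 CPM at P5. The other 2 epithelial markers were lower at P5. *Epcam* had 205 to 214 CPM at E18.5 and 60.9 to 68.6 CPM at P5, and *Nkx2-1* had 191 to 237 and 136 to 145 CPM. The part of these shifts in the changes of the clock genes across birth was not tested. Markers of neighbouring tissues were also present to an unequal extent. The summed level of 8 thymocyte markers was 186 and 355 CPM in P8 replicates 1 and 2 and 19.1 CPM in P8 replicate 3, against 10.6 to 15.9 CPM at P5, 0.249 to 0.759 CPM at E18.5, and 0.807, 19.6 and 0.846 CPM at E15.5. Up to 4 of the 8 thymocyte markers were at 0 in an E18.5 library and none were at 0 at P8. The summed level of 4 heart muscle markers was 583 and 644 CPM in E15.5 replicates 1 and 2 but 16.9 CPM in E15.5 replicate 3, against 12.8 to 34.9 CPM at E18.5, 57.6 to 138 CPM at P5 and 51.5 to 192 CPM at P8. The 3 skeletal muscle markers summed to 332, 86.6 and 4.26 CPM in the P8 replicates, to 4.77, 9.25 and 86.2 CPM at P5 and to at most 34.5 CPM before birth. The 2 liver markers summed to 8.41, 81.2 and 26.3 CPM at P8 and to at most 2.4 CPM earlier. Calls on the clock genes that were lost without the libraries rich in thymocyte or heart markers are given with and without them.

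The clock motifs that the feedback loop works through can be read in the sequence upstream of several of these genes. RefSeq promoter entries (GRCm38.p6) were found for 9 of the 10 genes, all but *Per2*, in 13 windows of 250 bases ending at the base before an annotated start. Each window was searched on both strands for the E-box CACGTG, its variant CACGTT, the D-box TTATGNAA and the AGGTCA half-site. Of all 32851 windows of this length, 6.02% held CACGTG, 3.85% held CACGTT, 3.07% held TTATGNAA and 14.0% held AGGTCA. Among the 10 genes, CACGTG was found upstream of *Cry1*, *Per1* and *Tef*, CACGTT upstream of *Cry1*, *Cry2* and *Nr1d1*, TTATGNAA upstream of *Per1* and *Per3*, and AGGTCA upstream of *Clock*, *Nr1d2* and *Per1*. A match describes the letters only. The windows of 5 genes, 1 for each gene, are shown because these are the genes on which the results turn: *Per1*, the gene that fell after P5, and the pairs *Cry1* and *Cry2* and *Nr1d1* and *Nr1d2*, whose members changed by different amounts. Each is written 5′ to 3′ on the strand of its gene, with motif matches in capitals.
Per1 (chr11:69098699-69098948, + strand): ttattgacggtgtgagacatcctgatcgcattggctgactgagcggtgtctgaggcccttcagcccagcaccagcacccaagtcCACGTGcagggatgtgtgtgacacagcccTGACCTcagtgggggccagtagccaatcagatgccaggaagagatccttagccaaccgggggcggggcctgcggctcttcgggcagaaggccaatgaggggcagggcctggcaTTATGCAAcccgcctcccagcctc
Cry1 (chr10:85185055-85185304, - strand): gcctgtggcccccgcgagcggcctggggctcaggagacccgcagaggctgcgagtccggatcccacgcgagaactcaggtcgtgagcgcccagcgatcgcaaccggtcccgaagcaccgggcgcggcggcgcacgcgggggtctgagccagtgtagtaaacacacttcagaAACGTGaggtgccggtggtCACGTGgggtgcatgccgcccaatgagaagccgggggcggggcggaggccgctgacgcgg
Cry2 (chr2:92434070-92434319, - strand): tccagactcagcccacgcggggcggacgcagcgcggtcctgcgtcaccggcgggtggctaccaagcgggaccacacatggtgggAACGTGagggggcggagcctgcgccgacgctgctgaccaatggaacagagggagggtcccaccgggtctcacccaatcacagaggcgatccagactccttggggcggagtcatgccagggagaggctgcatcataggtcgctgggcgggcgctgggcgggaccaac
Nr1d1 (chr11:98775378-98775627, - strand): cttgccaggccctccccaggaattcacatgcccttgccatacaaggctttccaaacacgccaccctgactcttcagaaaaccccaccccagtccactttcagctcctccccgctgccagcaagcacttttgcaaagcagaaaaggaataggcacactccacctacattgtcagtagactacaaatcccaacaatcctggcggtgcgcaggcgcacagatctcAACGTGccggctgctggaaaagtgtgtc
Nr1d2 (chr14:18239107-18239356, - strand): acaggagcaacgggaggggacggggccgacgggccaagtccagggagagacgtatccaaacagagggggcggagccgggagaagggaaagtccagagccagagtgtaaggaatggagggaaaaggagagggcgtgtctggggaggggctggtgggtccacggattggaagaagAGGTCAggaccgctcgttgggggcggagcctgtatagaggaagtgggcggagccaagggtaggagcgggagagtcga

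In the *Per1* window CACGTG lay 166 to 161 bases before the start, AGGTCA, read on the other strand, at 137 to 132, and TTATGNAA at 24 to 17. The 2nd *Per1* window in the RefSeq table, chr11:69099902-69100151, held none of the 4 motifs and is not shown. The *Per1* window shown lies inside the span of the annotated gene, since another transcript model starts further upstream. In the *Cry1* window CACGTT, read on the other strand, lay at 79 to 74 and CACGTG at 60 to 55 bases before the start, while the *Cry2* window held only CACGTT, on the other strand, at 166 to 161. The *Nr1d1* window held CACGTT on the other strand at 28 to 23, and the *Nr1d2* window held AGGTCA at 77 to 72.

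Across the 4 time-points the clock genes did not move as a block. Between E18.5 and P5, the interval that spans birth, 8 of 10 were higher at P5 at a false discovery rate (FDR) under 0.05. Of all genes tested, 35.4% were called higher in that interval and 35.7% lower. *Cry1* and *Per1* did not pass the test, and for *Per1* this depended on the setting. After P5, *Per1* was the only member past both cutoffs used here, an absolute log2 fold change above 1 and an FDR under 0.05, and it fell. *Cry1* passed no test in any comparison. Separation of the libraries of 2 time-points, given for single genes below, was common among all genes tested. The libraries did not overlap for 38.3% of genes between E15.5 and E18.5 and for 77.5% between E18.5 and P5. Between P5 and P8 this share was 40.2%, and between E15.5 and P8 it was 77.2%. Fold changes and FDR values are from edgeR's quasi-likelihood test on the counts of 15994 genes, with Benjamini-Hochberg adjustment over all of them.

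**Figure D1:**
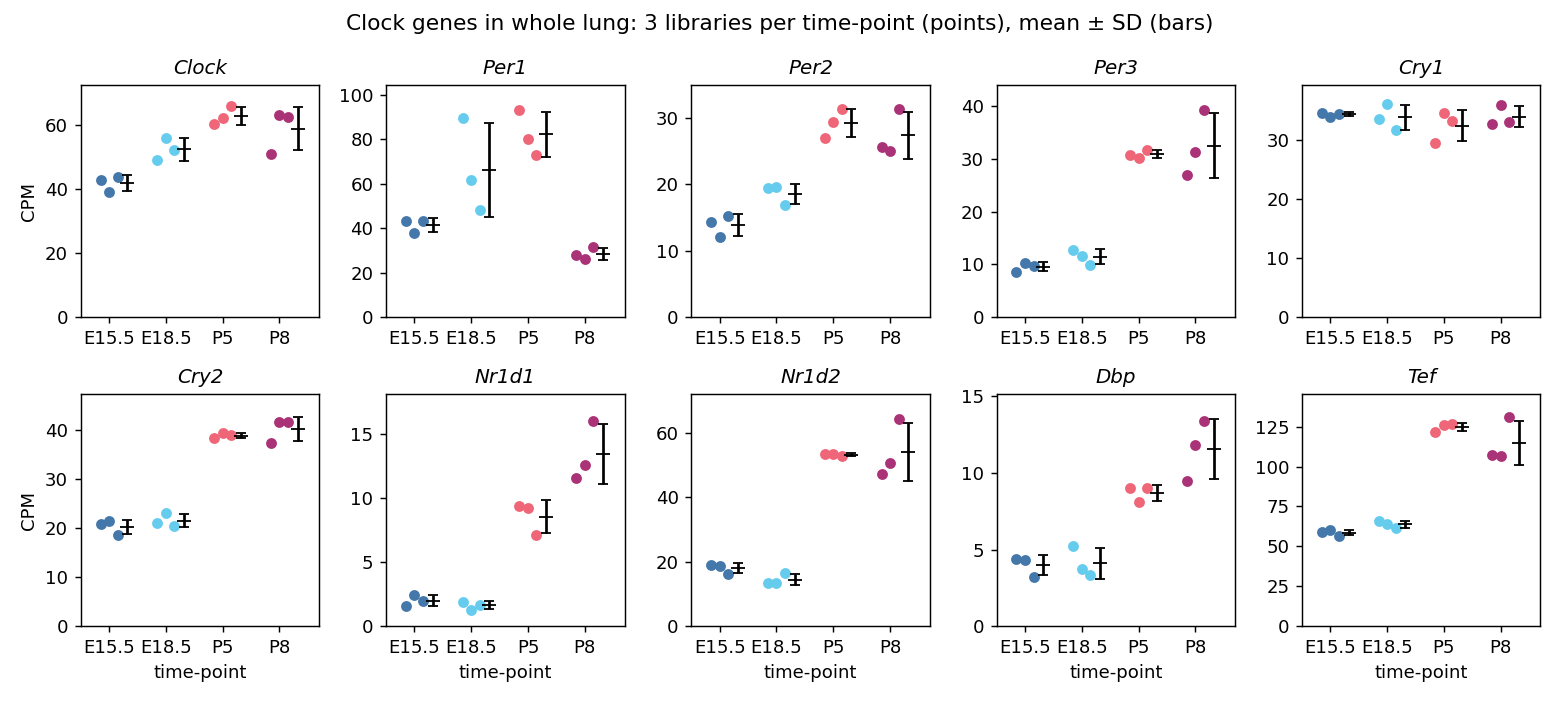
Level of the 10 clock genes in CPM (y axis, from 0, a separate scale per gene) at each time-point (x axis); points are the 3 libraries of a time-point and bars the mean ± SD. *Per1* lies at 26.1 to 31.4 CPM at P8, below every library of the earlier time-points, while *Nr1d1* lies at 1.30 to 2.42 CPM in the embryonic and 7.08 to 16.0 CPM in the postnatal libraries.

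*Clock* encodes the DNA-binding activator that pairs with BMAL1, and its gene lies at chr5:76209868-76304792 on the - strand. Its level was 42.8, 39.2 and 43.7 CPM at E15.5, 49.0, 56.1 and 52.2 CPM at E18.5, then 60.3, 62.2 and 65.9 CPM at P5, and 51.1, 63.1 and 62.4 CPM at P8. The E15.5, E18.5 and P5 libraries did not overlap each other, and the P8 libraries overlapped those of both E18.5 and P5. *Clock* rose by 0.33 ± 0.08 (SE) on the log2 scale between E15.5 and E18.5 (edgeR FDR = 0.011; 0.26, FDR = 0.19 without the heart-rich libraries) and by 0.35 ± 0.08 between E18.5 and P5 (FDR = 0.0012). Between P5 and P8 the log2 fold change was -0.11, with a 95% interval of -0.28 to 0.05 (FDR = 0.32). By mean level the order of the time-points was E15.5, E18.5, P8 and P5, and P8 was not separated from its neighbours on either side.

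The period genes encode the inhibitory PER proteins. *Per1* (chr11:69095217-69109960, + strand), which is known to respond quickly to light and hormone signals in the tissues where this has been studied, had a level of 43.2, 37.9 and 43.3 CPM at E15.5 and of 89.5, 61.4 and 48.1 CPM at E18.5. At P5 it had 93.3, 79.9 and 73.1 CPM, and at P8 it had 28.1, 26.1 and 31.4 CPM. All 3 P8 libraries were below all 9 others, the E15.5 libraries were the next lowest, and E18.5 and P5 overlapped. The spread at E18.5 was wide, with a coefficient of variation of 33.0% after scaling. The median over all genes tested was 8.60%, and 91.1% of genes had a smaller one. On the log2 scale *Per1* rose by 0.69 ± 0.19 between E15.5 and E18.5 (FDR = 0.023), and its fold change between E18.5 and P5 was 0.40 ± 0.19 (FDR = 0.076). Between P5 and P8 it was -1.55 ± 0.19 (FDR = 0.00094), and between E15.5 and P8 it was -0.46 ± 0.19 (FDR = 0.041). The change across birth ranged from 0.20 to 0.68 under 21 alternatives, and its FDR was under 0.05 in 3 of them. The rise before birth depended on single libraries: the log2 fold change was 0.40 (FDR = 0.085) without E18.5 replicate 1 and 0.71 and 0.63 (FDR = 0.053 and 0.073) without E15.5 replicate 1 or 2. Without the 3 thymocyte-rich libraries it was 0.63 (FDR = 0.076), and without the 2 heart-rich libraries 0.61 (FDR = 0.24).

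The fall of *Per1* from P5 to P8 went against the direction of most changes past both cutoffs in that interval. Among all genes tested, 2.88% were higher at P8 past both cutoffs and 0.0875%, which is 14 genes, were lower. The genes higher past both cutoffs included thymocyte and liver markers, whose sums were uneven among the P8 libraries. By separation of libraries alone the directions were about even. Every P8 library was above every P5 library for 19.5% of genes and below for 20.7%. *Per1* ranked 4th of those 14 by the size of its fold change. Its mean level over all libraries was 63.2 CPM, and the next highest of the 14, *Gm2115*, had 20.1 CPM. These 2 means were taken over the scaled totals of the count table, so they differ in unit from the CPM values above. The fall was past both cutoffs under all 21 alternatives tried, with log2 fold changes from -1.65 to -1.42. The value of -1.42 (FDR = 0.040) was that without the thymocyte-rich libraries, which include P8 replicates 1 and 2, the P8 libraries with most skeletal muscle and liver markers respectively. The lower level at P8 than at E15.5 was less firm, since the FDR was not under 0.05 in 8 of 21 alternatives, among them those without E15.5 replicate 1 or 3, P5 replicate 2, or P8 replicate 1 or 2 (FDR from 0.056 to 0.13), without the thymocyte-rich libraries (-0.38, FDR = 0.28) and without the heart-rich ones (-0.54, FDR = 0.10).

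*Per2* (chr1:91415982-91459324, - strand) followed another course. It had 14.3, 12.1 and 15.2 CPM at E15.5, 19.4, 19.5 and 16.8 CPM at E18.5, then 27.0, 29.4 and 31.3 CPM at P5 and 25.7, 25.1 and 31.4 CPM at P8. Both steps up to P5 were without overlap, and P5 and P8 overlapped. Its log2 fold changes were 0.43 ± 0.11 (FDR = 0.017), 0.74 ± 0.11 (FDR = 5.9e-05) and -0.11 ± 0.11 (FDR = 0.51) over the 3 adjacent intervals in order. Without E15.5 replicate 2, E18.5 replicate 1 or E18.5 replicate 2 the first of these was 0.34, 0.39 and 0.40, with FDR values of 0.058, 0.062 and 0.060, and without the heart-rich libraries it was 0.28 (FDR = 0.27).

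*Per3* (chr4:151003652-151044665, - strand), the period gene least needed for rhythms in mice, changed mainly across birth. It had 8.60, 10.3 and 9.66 CPM at E15.5, 12.8, 11.7 and 9.89 CPM at E18.5, then 30.6, 30.2 and 31.6 CPM at P5 and 27.0, 31.3 and 39.2 CPM at P8. The embryonic and postnatal libraries did not overlap, while within each pair of time-points the libraries did. *Per3* had a log2 fold change of 0.27 ± 0.13 before birth (FDR = 0.15), 1.51 ± 0.13 between E18.5 and P5 (FDR = 5e-07) and 0.06 ± 0.13 from P5 to P8 (FDR = 0.80). The gene model overlaps *Camta1* on the same strand, so reads in the shared part may be uncertain.

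The cryptochrome genes encode the other inhibitors of CLOCK and BMAL1. *Cry1* (chr10:85131700-85185064, - strand) had 34.7, 34.0 and 34.6 CPM at E15.5, 33.7, 36.2 and 31.8 CPM at E18.5, then 29.6, 34.7 and 33.3 CPM at P5, and 32.8, 36.1 and 33.2 CPM at P8. The 4 time-points overlapped, and their order has no meaning beyond the spread. Between E18.5 and P5 its log2 fold change was 0.02, with a 95% interval of -0.12 to 0.17 (edgeR FDR = 0.75), and over the whole span from E15.5 to P8 it was 0.06, with an interval of -0.08 to 0.20 (FDR = 0.43). The fold cutoff of 1 on the log2 scale lies outside both intervals. Scaled by library size only, both values turned below 0, to -0.04 and -0.01.

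*Cry2* (chr2:92403646-92434043, - strand) rose across birth and passed no test in the intervals on either side. It had 20.8, 21.4 and 18.7 CPM at E15.5, 21.0, 23.0 and 20.5 CPM at E18.5, then 38.3, 39.3 and 38.9 CPM at P5 and 37.4, 41.6 and 41.7 CPM at P8. Every postnatal library was above every embryonic library. *Cry2* rose by 0.94 ± 0.06 on the log2 scale between E18.5 and P5 (FDR = 7.8e-08), which is under the fold cutoff. Its log2 fold change was 0.09 ± 0.07 before birth (FDR = 0.36) and 0.03 ± 0.06 between P5 and P8 (FDR = 0.77).

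The REV-ERB receptors are repressors that close the connected loop, and their genes showed the largest fold changes of the 10 between E18.5 and P5. *Nr1d1* (chr11:98767932-98775333, - strand) had 1.58, 2.42 and 2.01 CPM at E15.5, 1.93, 1.30 and 1.65 CPM at E18.5, then 9.36, 9.23 and 7.08 CPM at P5 and 11.6, 12.6 and 16.0 CPM at P8. The postnatal libraries were all above the embryonic, and those of P8 all above those of P5. The rise across birth was 2.48 ± 0.21 on the log2 scale (FDR = 5.2e-07). The next step, to P8, was 0.63 ± 0.20 (FDR = 0.046), a call that did not hold in 10 of 21 alternatives: leaving out any 1 of the 6 P5 and P8 libraries gave 0.47 to 0.72 with FDR values from 0.069 to 0.18, without E15.5 or E18.5 replicate 3 the FDR was 0.052 and 0.057, with a replicate block it was 0.074, and without the 3 thymocyte-rich libraries (E15.5 replicate 2 and P8 replicates 1 and 2) it was 0.084. *Nr1d1* overlaps the gene *Thra* on the opposite strand, and the strand setting of the counting was not given in the sources used here. The authors left out ambiguous reads, so it is not known whether reads in the overlap were counted.

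*Nr1d2* (chr14:18204054-18239127, - strand), the paralog of *Nr1d1*, was the more abundant, also per kilobase of exon. It had 19.1, 18.7 and 16.2 CPM at E15.5, 13.4, 13.5 and 16.5 CPM at E18.5, then 53.4, 53.6 and 52.7 CPM at P5 and 47.1, 50.6 and 64.2 CPM at P8. The embryonic and postnatal libraries were far apart, and the time-points on each side overlapped. Before birth its log2 fold change was -0.31 ± 0.11 (FDR = 0.064), and across birth it was 1.97 ± 0.11 (FDR = 2e-08). Between P5 and P8 the 95% interval was -0.23 to 0.23 (FDR = 1.0).

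*Dbp* and *Tef* encode PAR bZIP activators of output genes. *Dbp* (chr7:45705088-45710203, + strand) had 4.39, 4.32 and 3.25 CPM at E15.5, 5.23, 3.73 and 3.33 CPM at E18.5, then 9.01, 8.11 and 9.02 CPM at P5 and 9.48, 11.8 and 13.4 CPM at P8. The embryonic time-points overlapped, the P5 libraries were above them, and those of P8 lay above those of P5. *Dbp* rose by 1.17 ± 0.19 on the log2 scale across birth (FDR = 0.00011), and its change between P5 and P8 was 0.39 ± 0.18 (FDR = 0.16), so the second step did not pass the test. *Dbp* overlaps *Sphk2* on the opposite strand.

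*Tef* (chr15:81802421-81826863, + strand) had the highest CPM of the 10 genes at P5 and P8. It had 59.3, 60.1 and 56.6 CPM at E15.5, 65.7, 63.8 and 61.7 CPM at E18.5, then 122, 126 and 127 CPM at P5 and 107, 106 and 131 CPM at P8. Every postnatal library was above every embryonic library. *Tef* rose by 1.05 ± 0.07 on the log2 scale across birth (FDR = 6.3e-08; 0.99, under the fold cutoff, with library size scaling only), and between P5 and P8 its log2 fold change was -0.14 ± 0.07 (FDR = 0.19). The 3 P5 libraries were close, with a coefficient of variation of 0.870% after scaling, and only 1.68% of genes had a smaller one at P5.

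Counted over the members, the adjacent intervals differed. In the interval before birth no member was past both edgeR cutoffs, where 3.04% of all genes were, and none was with DESeq2. In that interval 3 members had an FDR under 0.05, all higher at E18.5 (*Per1*, *Per2* and *Clock*), beside 11.6% of all genes called higher. Without E15.5 replicates 1 and 2, the libraries rich in heart markers, no member passed the FDR cutoff, in a fit with 1 library left at E15.5. Across birth, 5 members were past both cutoffs, all higher (*Per3*, *Nr1d1*, *Nr1d2*, *Dbp* and *Tef*), beside 17.5% of all genes (4 members with library size scaling only, without *Tef*), and 8 were higher by FDR alone, beside 35.4%. With DESeq2, 9 members passed the FDR cutoff in this interval. After P5, *Per1* alone was past both cutoffs, and *Nr1d1* was the only member called higher by FDR, beside 9.75% of all genes. The median log2 fold change of the 10 genes was 0.11, 0.998 and 0.02 over the 3 intervals, and that of all genes tested was -0.01, -0.00 and -0.00.

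**Figure D2:**
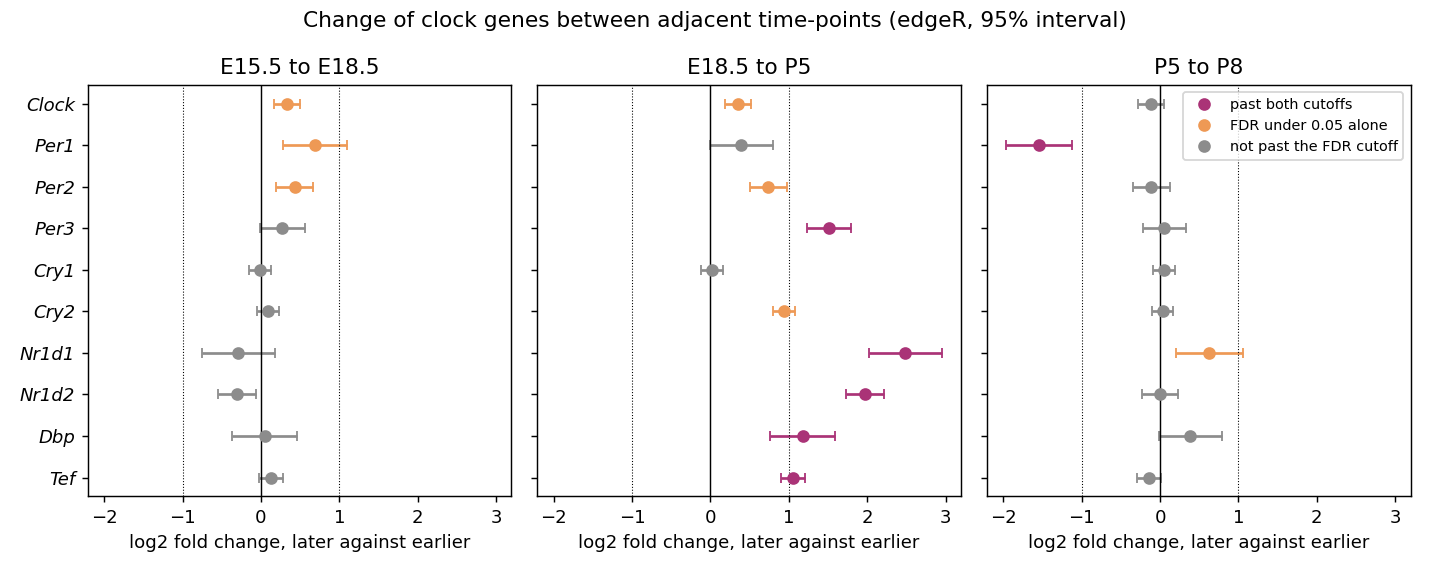
Log2 fold change of each clock gene between adjacent time-points (x axis, later against earlier), with the 95% interval from edgeR as bars and dotted lines at the fold cutoff; colour gives the cutoffs passed. In the middle panel *Nr1d1* lies at 2.48 and *Nr1d2* at 1.97 while *Cry1* lies at 0.02, and in the right panel *Per1* lies at -1.55.

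Over the whole span from E15.5 to P8, 7 of the 10 genes were higher past both cutoffs, beside 20.9% of all genes, and 9 passed the FDR cutoff, 8 of them higher, beside 37.6%, and *Per1* lower, beside 38.7%. This comparison shares its samples with those above. The log2 fold changes of the 7 were 2.82 ± 0.21 for *Nr1d1* (FDR = 1.1e-07), 1.84 ± 0.13 for *Per3* (FDR = 6.6e-08), 1.66 ± 0.11 for *Nr1d2* (FDR = 3.9e-08) and 1.61 ± 0.19 for *Dbp* (FDR = 6.4e-06). *Cry2*, *Per2* and *Tef* lay close to the fold cutoff, at 1.06 ± 0.07, 1.06 ± 0.11 and 1.04 ± 0.07. *Clock* was higher by 0.56 ± 0.08 (FDR = 2.1e-05). Scaled by library size only, *Cry2*, *Per2* and *Tef* came to 0.99, 0.99 and 0.97, and 4 genes were past both cutoffs. Without P8 replicate 3, *Per2* and *Tef* came to 0.94 and 0.94, and without E15.5 replicate 2 *Per2* came to 0.97, and without both heart-rich libraries to 0.91.

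Between genes, levels can be compared only per length, here as CPM per kilobase of exonic sequence. At E15.5 the highest of the 10 were *Cry1* with 10.3 ± 0.102 (SD, n = 3) CPM per kilobase, *Tef* with 7.46 ± 0.230 and *Per1* with 7.36 ± 0.549, and the lowest was *Nr1d1* with 0.651 ± 0.136. *Tef* and *Per1* overlapped there. Exonic lengths were not reduced for overlap with other genes, such as that of *Nr1d1* with *Thra*, where reads may not have been counted. At P5 *Tef* (15.9 ± 0.315) and *Per1* (14.6 ± 1.82) were highest, again with overlapping libraries, ahead of *Nr1d2* (9.84 ± 0.0881) and *Cry1* (9.74 ± 0.784). At P8 *Tef* had 14.6 ± 1.78, *Cry1* 10.2 ± 0.536 and *Nr1d2* 9.97 ± 1.67, and *Per1* had 5.06 ± 0.471, behind *Cry2* with 6.36 ± 0.382. At P8 the lowest mean was that of *Per3* with 3.38 ± 0.644, and its libraries overlapped those of *Dbp* (3.86 ± 0.653), *Clock* (4.29 ± 0.492) and *Nr1d1* (4.36 ± 0.760), so these 4 were not separated.

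Paralogs changed unequally, which a ratio within each library shows without any scaling between libraries. The ratios were chosen after their values had been seen, so their p-values are no independent support, and 7 were computed. The 6 embryonic libraries were set against the 6 postnatal ones in an exact 2-sided permutation test, although each side holds 2 litters only. The test treats littermates as independent, so its p-values are descriptive and do not measure the spread between litters. *Cry2* to *Cry1* was 0.540 to 0.642 in the embryonic and 1.13 to 1.29 in the postnatal libraries. The difference in mean log2 ratio was 0.96 (exact permutation p = 0.00216, the smallest that 6 against 6 libraries allow, adjusted p = 0.00505). *Per3* to *Per2* was 0.587 to 0.853 before and 1.01 to 1.25 after birth, a difference of 0.78 with the same p. *Per1* to *Per3* fell from a range of 3.68 to 7.0 before birth to one of 0.80 to 3.04 after, a difference of -1.69 with the same p. In these 3 ratios the embryonic and postnatal libraries did not overlap.

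The other ratios overlapped between the sides. *Nr1d1* to *Nr1d2* was 0.0826 to 0.144 in embryonic and 0.134 to 0.25 in postnatal libraries, a log2 difference of 0.85 (exact permutation p = 0.00433, adjusted p = 0.00758), and at P8 its 3 values were 0.246, 0.249 and 0.25. *Per1* to *Per2* was 3.02, 3.14 and 2.85 at E15.5, 4.61, 3.14 and 2.86 at E18.5, 3.46, 2.72 and 2.34 at P5 and 1.10, 1.04 and 0.999 at P8 (log2 difference -0.91, exact permutation p = 0.0281, adjusted p = 0.0394). At P8 the CPM values of *Per1* and *Per2* were thus about equal, and at the other time-points *Per1* was higher in every library. *Dbp* to *Tef* (0.36, exact permutation p = 0.0541, adjusted p = 0.0631) and *Clock* to *Arntl* (-0.29, exact permutation p = 0.0823, adjusted p = 0.0823) did not pass the test.

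**Figure D3:**
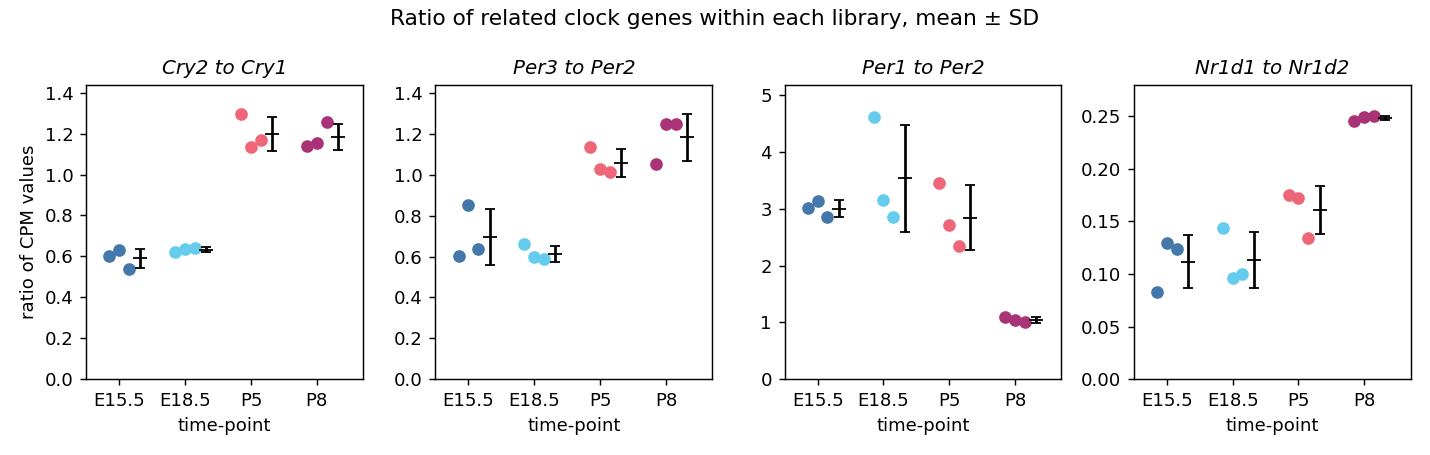
Ratio of CPM values of related clock genes within each library (y axis, from 0) by time-point (x axis); points are the 3 libraries and bars the mean ± SD. *Cry2* to *Cry1* is 0.540 to 0.642 in the embryonic and 1.13 to 1.29 in the postnatal libraries, and *Per1* to *Per2* is 0.999 to 1.10 at P8.

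The partners of CLOCK and the ROR receptors were given by a list of 5 genes. Across birth 3 of these passed the FDR cutoff as higher and 2 as lower, and over E15.5 to P8 again 3 were higher and 2 lower. Of all genes, 35.4% were called higher and 35.7% lower across birth, and 37.6% and 38.7% over the whole span. *Arntl*, the gene of BMAL1, had 11.4, 10.4 and 11.3 CPM at E15.5, 8.91, 11.4 and 9.52 CPM at E18.5, then 14.2, 14.1 and 16.8 CPM at P5 and 17.7, 20.4 and 16.8 CPM at P8. It rose by 0.68 ± 0.12 on the log2 scale across birth (FDR = 0.00017), the same interval in which its repressors *Nr1d1* and *Nr1d2* rose. *Npas2*, a CLOCK paralog, rose by 1.26 ± 0.24 (FDR = 0.00048). *Rora*, an activator of *Arntl*, rose both before birth (1.12 ± 0.14, FDR = 0.00086) and across birth (1.38 ± 0.14, FDR = 2.1e-06). The first of these steps was 0.94 without E18.5 replicate 1.

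*Rorb*, an ROR receptor best known from brain and retina, had 1.30 to 2.46 CPM in the embryonic and 0.131 to 0.372 CPM in the postnatal libraries, a log2 fold change of -2.37 ± 0.32 across birth (FDR = 2.4e-05). *Arntl2*, a BMAL1 paralog, fell by 0.97 on the log2 scale across birth (FDR = 0.017).

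Of the 5 further output and feedback factors, 3 passed the FDR cutoff across birth and all 3 were higher, beside 35.4% of all genes. *Hlf*, the PAR bZIP relative of *Dbp* and *Tef*, rose by 0.80 ± 0.08 (FDR = 2.1e-06), and *Nfil3*, which opposes them at D-boxes, rose by 0.56 ± 0.14 (FDR = 0.0033). *Bhlhe41*, an E-box repressor, had 0.498 to 2.02 CPM in the embryonic and 3.6 to 7.35 CPM in the postnatal libraries and rose by 2.41 ± 0.36 (FDR = 5.9e-05). Its paralog *Bhlhe40* had 47.5, 14.0 and 12.4 CPM at E18.5, with the high value in replicate 1, the library in which *Per1* was also highest at that time-point. The coefficient of variation of *Bhlhe40* there was 81.6% after scaling, above that of 98.4% of genes. Across birth *Bhlhe40* had a log2 fold change of -0.05 ± 0.40 (FDR = 0.91), which became 0.86 (FDR = 0.001) without E18.5 replicate 1. From E15.5 to P8 it was higher by 1.12 ± 0.40 (FDR = 0.023), and without E15.5 replicate 1 by 0.94 (FDR = 0.085). That call was also lost without the thymocyte-rich (1.34, FDR = 0.073) and without the heart-rich libraries (1.05, FDR = 0.15).

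Of the 9 kinases, ubiquitin ligases and nuclear partners of PER and CRY, 1 was higher and 4 were lower by FDR across birth, beside 35.4% and 35.7% of all genes, with a list median of -0.07. *Timeless* and *Tipin*, partners that also act at replication forks, fell by 0.95 and 0.76 over that interval (edgeR FDR = 5.8e-07 and 9.1e-06) and by 1.13 and 1.19 from E15.5 to P8. Of the 3 clock-controlled output genes, 2 were lower by FDR at P5 than at E18.5, beside 35.7% of all genes. *Wee1*, a kinase that delays mitosis, had 72.9 to 89.0 CPM in the embryonic and 31.6 to 38.1 CPM in the postnatal libraries, a log2 fold change of -1.08 across birth (FDR = 8.6e-08).

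**Figure D4:**
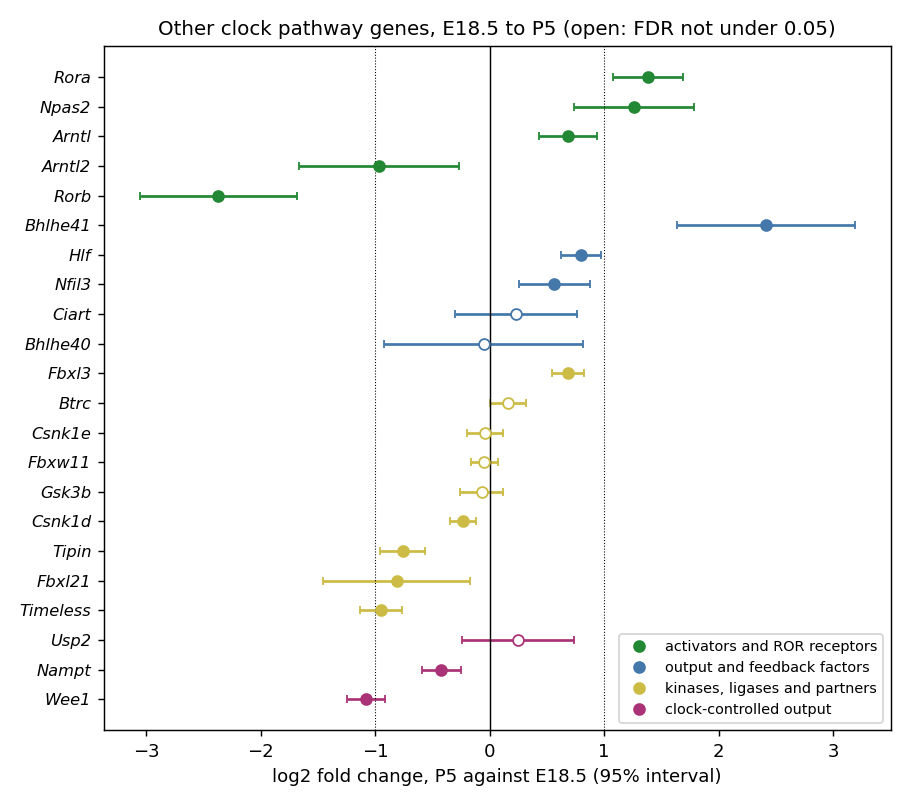
Change on the log2 scale between E18.5 and P5 (x axis) of the 22 other clock pathway genes (y axis, coloured by list), with 95% intervals from edgeR; filled points have an FDR under 0.05. *Bhlhe41* (2.41), *Rora* (1.38) and *Npas2* (1.26) lie past the upper fold cutoff, and *Rorb* (-2.37) and *Wee1* (-1.08) past the lower.

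Because *Per1* can be induced by glucocorticoids and by acute stimuli in many cells, lists of both kinds of gene were set beside it. Between P5 and P8 the 7 glucocorticoid response genes had log2 fold changes from -0.31 to 0.48, with a median of -0.09. The lowest was *Tsc22d3*, with -0.31 (FDR = 0.020), against -1.55 for *Per1*. Of 9 acutely inducible genes, 5 were higher by FDR at P8, beside 9.75% of all genes, with a median of 0.60. *Fos* had 5.26 to 6.82 CPM at P5 and 10.7 to 12.3 CPM at P8, and *Dusp1* had 38.4 to 42.7 CPM at P5 and 72.9 to 96.6 CPM at P8. Across birth, 5 of the glucocorticoid response genes were higher and 1 was lower, and 7 of the acutely inducible genes were higher and 1 lower, beside 35.4% of all genes higher and 35.7% lower. Whether glucocorticoids or acute stimuli had a part in the changes of *Per1* was not tested.

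**Figure D5:**
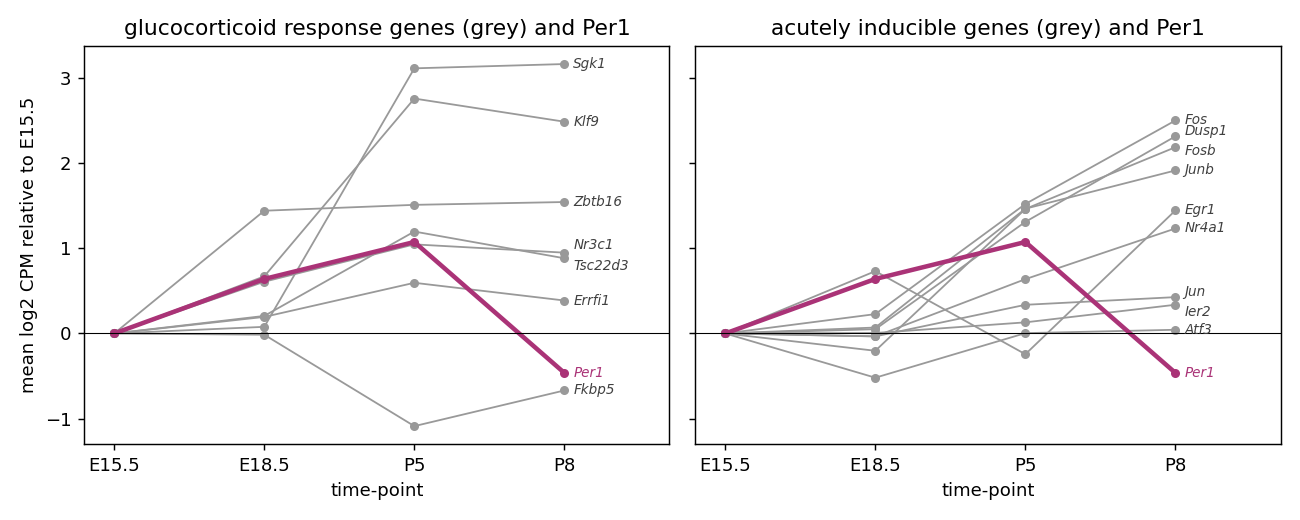
Mean log2 CPM relative to E15.5 (y axis, 3 libraries per time-point) of *Per1* (coloured) and of 7 glucocorticoid response genes (left, grey) and 9 acutely inducible genes (right, grey) over the time-points (x axis). After P5 *Per1* falls while 5 of the 9 acutely inducible genes rise past the FDR cutoff.

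To find the course most like that of each clock gene, the root mean square difference of centred log2 CPM over the 12 libraries was taken between it and every other gene tested. The nearest gene to *Per1* was *Klf15*, a Krüppel-like transcription factor, at a distance of 0.32, with mean levels of 7.46 ± 0.432, 13.6 ± 2.19, 15.2 ± 1.58 and 8.42 ± 0.352 CPM (SD, n = 3) from the earliest to the latest time-point. *Klf15* was in neither the glucocorticoid response list nor the acutely inducible list set beside *Per1*, so the values of those lists do not cover it. No other clock gene was near *Per1*: the closest, *Clock*, lay at 0.62, and 2631 genes lay closer. *Cry2* and *Tef* were each other's nearest members at 0.10. The genes nearest to the others were *Cadm1* for *Per2* (0.065), *Notch4* for *Per3* (0.11), *Brat1* for *Cry1* (0.053), *Prkx* for *Cry2* (0.055) and *Atl3* for *Clock* (0.068). For *Nr1d1* it was *Pik3ap1* (0.21), for *Dbp* *Gm26809* (0.15) and for *Tef* *Serinc3* (0.044). *Cry1* itself varied by only 0.062 around its mean, so a gene without any change would lie almost as near to it as *Brat1*. The 12 libraries hold 4 time-points only, so many genes with a step across birth lie at a short distance, and the measure is a description.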

How the data were processed

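RNA from whole lungs (TruSeq libraries, paired-end reads) was sequenced in 12 libraries, 3 at each of 4 time-points. The authors mapped uniquely to mm10 with TopHat2 2.1.1 and Bowtie2 2.3.4, counted reads per Gencode vM14 gene with HTSeq 0.10.0, and deposited raw counts of the 16152 genes kept as expressed. The authors also deposited CPM values, each count divided by the mapped reads of its library. These gave back whole reads (tolerance 0.1) for 100% of values, equal to the counts. A deposited table of splicing levels names no genes and was not used here. No column of per-sample values was left out.

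Genes with at least 1 CPM in 3 libraries were tested, with TMM scaling and 1 model over the 4 time-points, by edgeR 4.0.16 (R 4.3.3), and the script was tested on simulated data. Cutoffs were an absolute log2 fold change above 1 and FDR under 0.05, adjusted over 15994 genes. Coordinates and lengths are from GENCODE M21 (GRCm38), and names were matched by Ensembl ID. Named were all 10 clock genes, *Arntl*, *Npas2*, *Hlf* and *Nfil3*, other listed clock pathway genes past both cutoffs in any comparison, and, for 9 members, the nearest gene by root mean square difference of log2 CPM (prior count 1). Other genes were named after their values were seen: *Arntl2* among the pathway genes, *Gm2115* among the genes lower at P8, and *Tsc22d3*, *Fos* and *Dusp1* beside *Per1*. The same holds for the epithelial markers *Sftpc*, *Epcam* and *Nkx2-1* and for the thymocyte markers *Rag1*, *Ptcra* and *Cd3e*. A further listed gene and a nearest gene are not reported here. Alternatives were DESeq2 1.42.0, other scalings, no filter, fits of 2 time-points, a replicate block, and leaving out each library. The members and lists were chosen with earlier results of these data known. Replicates sharing a number were checked for pairing: their deviations from the group means correlated at -0.35 to 0.30, so the numbers were not taken to pair samples. Counts ran from 68 to 7968 per member and library. The parts of depth and of the spread between 3 littermates in the precision were not tested.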

Additional observations from a re-analysis of the deposited data

How the results depend on the processing

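Each result was recomputed under 21 alternatives, of which 3 were chosen after seeing the data: reads recovered from all CPM values, leaving out the 3 libraries richest in thymocyte markers (E15.5 replicate 2, P8 replicates 1 and 2), and leaving out the 2 richest in heart markers (E15.5 replicates 1 and 2). Of 1764 alternative log2 fold changes over 84 pairs of named gene and comparison, 1717 kept their direction and their side of the cutoffs, 33 turned in direction, 12 lost and 2 gained a place past both cutoffs. The cause of a change was not tested unless the alternative holds fewer samples.

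The count of members past both cutoffs from E15.5 to P8 was 7, was 4 with library size scaling only, and ranged from 5 to 7 with single libraries left out. The count past the FDR cutoff alone from E15.5 to E18.5 was 3, was 0 without the heart-rich libraries, and ranged from 1 to 4 with single libraries left out. From P5 to P8 it was 2, was 1 without the thymocyte-rich libraries, and ranged from 1 to 2 with single libraries left out. With the replicate number as a block it was 1 from P5 to P8, and the block moved no other count of members by over 1.5 times.

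The values that turned in direction all lay near 0 or had a wide spread, and are log2 fold changes. With library size scaling only, *Cry1* was -0.0432 across birth (E18.5 to P5) and -0.0111 over the whole span. From P5 to P8, *Nr1d2* (-0.0002) became 0.0101 with relative log expression, 0.0163 with library size, 0.0102 with DESeq2, 0.0024 in the fit of 2 time-points and 0.2428 without the thymocyte-rich libraries, while *Hlf* became 0.0111, 0.0145, 0.0113, 0.0024 and 0.1085 under the same alternatives and 0.00 without the heart-rich libraries. Without the thymocyte-rich libraries, *Per2* was 0.0797 and *Tef* 0.0435. *Bhlhe40* was 0.0664 from E18.5 to P5 with the block. With single libraries left out, values ranged for E15.5 to E18.5 from -0.0604 to 0.0342 (*Cry1*), -0.1767 to 0.1829 (*Dbp*), -0.3853 to 0.8554 (*Bhlhe40*) and -0.1027 to 0.0318 (*Tipin*), for E18.5 to P5 from -0.0248 to 0.0698 (*Cry1*) and -0.3787 to 0.8619 (*Bhlhe40*), and for P5 to P8 from -0.1103 to 0.1456 (*Per3*), -0.0040 to 0.0503 (*Cry2*), -0.1523 to 0.0608 (*Nr1d2*) and -0.0703 to 0.0365 (*Hlf*). Depth was lowest for *Nr1d1* and *Dbp*, with 68 and 165 reads in their lowest libraries, and its effect was not tested.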
